A study of Mus musculus with 7 samples.

Results

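The genes described here handle zinc in the enterocyte: the importers Slc39a4, Slc39a5 and Slc39a14, the exporter Slc30a1, and the metallothioneins Mt1 and Mt2. They were followed through the binding of the vitamin D receptor (VDR) to chromatin, as peaks called from chromatin immunoprecipitation and sequencing (ChIP-seq). Every VDR peak with its centre within 50 kb of the body of these 6 genes (mouse build mm9) was taken, and overlapping peaks of different libraries were joined into regions. This gave 63 regions, of 87029 in the whole data set. The 1,25(OH)2D3 group (3 libraries) came from wild-type chow-fed mice, 8 weeks old, treated with 10 ng/g of 1,25-dihydroxyvitamin D3, the hormone made from vitamin D, and examined 1 h later. The vehicle group (3 libraries) came from mice of the same age and diet given vehicle alone. All of the material was epithelium shed with EDTA from the duodenum and jejunum, and the same input library, labelled with the hormone dose, served the peak calling of both groups. The design text mentions 3 mice, and no label ties a library to an individual animal. The p-values below therefore measure the spread between libraries, which may be technical. The purpose of the comparison, by the title of the series, was to find VDR target genes of the proximal intestine.

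Dietary zinc enters the enterocyte at its apical membrane through Slc39a4 (ZIP4), the importer whose loss causes the human zinc deficiency disease acrodermatitis enteropathica, and leaves towards the blood through Slc30a1 (ZnT1). Inside the cell, metallothioneins are small cysteine-rich proteins that hold zinc and other metals, and their genes are switched on by Mtf1, a zinc-sensing factor that binds metal response elements. VDR acts as a heterodimer with a retinoid X receptor and typically binds a direct repeat with a 3-base spacer (DR3), at promoters and at distant enhancers. Peaks record where the receptor sat and not whether a gene was transcribed, and in bulk chromatin, binding in fewer cells and weaker binding per cell cannot be told apart.

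The lists differed in depth and length, which bears on every count below. The 1,25(OH)2D3 libraries held 17152461 to 66524392 tags and 25510 to 41722 peaks, and the vehicle libraries 15991198 to 68560701 tags and 8756 to 48425 peaks. Replicate 3 was the deepest library of both groups, and vehicle replicate 3 had the longest list of all. A protein-coding gene had, on average, 3.20 peaks within 50 kb after 1,25(OH)2D3 and 1.94 after vehicle, so higher peak numbers with hormone were common across the genome. The values are presence or absence of peaks. The place of a peak in its library's list is given as a percentile, where 100 is the first peak, because the deposited score is 1 for every peak. The list order is not a measured occupancy, and lists of different lengths make percentiles of the 2 groups no measure of change.

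The sequences of the regions on which the results turn are given first, as the forward strand of mm9 around each region's centre. Shown are up to 2 of the regions present in the most libraries at each locus, but not all of them, and 3 stretches added after their values were seen. Capitals mark the closest DR3 matches in the transporter regions and in the second Mt1 region, and metal response element cores (TGCACNC or TGCGCNC, either strand) in the regions at the starts of Mt1 and Mt2. Stretches stop at annotated untranslated regions.
Slc39a4, 0.85 kb upstream, chr15:76448072-76448272: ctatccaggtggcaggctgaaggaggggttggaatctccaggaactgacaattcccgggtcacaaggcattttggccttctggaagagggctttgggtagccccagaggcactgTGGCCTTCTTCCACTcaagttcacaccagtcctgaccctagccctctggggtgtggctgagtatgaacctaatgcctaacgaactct
Slc39a14, 36.4 kb upstream, chr14:70787573-70787773: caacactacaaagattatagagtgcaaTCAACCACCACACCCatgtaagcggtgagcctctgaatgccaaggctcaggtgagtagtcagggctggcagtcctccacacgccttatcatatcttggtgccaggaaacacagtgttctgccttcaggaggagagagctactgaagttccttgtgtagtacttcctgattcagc
Slc39a14, 25.0 kb upstream (added), chr14:70776156-70776356: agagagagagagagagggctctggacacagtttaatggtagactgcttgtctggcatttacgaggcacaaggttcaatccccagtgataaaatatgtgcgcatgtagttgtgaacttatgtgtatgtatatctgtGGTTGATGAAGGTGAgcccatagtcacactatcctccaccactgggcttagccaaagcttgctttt
Slc39a5, 0.661 kb downstream of the start (added), chr10:127837584-127837719: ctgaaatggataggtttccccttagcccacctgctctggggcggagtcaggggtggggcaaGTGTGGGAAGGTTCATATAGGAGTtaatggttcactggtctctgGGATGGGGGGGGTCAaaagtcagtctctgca
Slc30a1, 25.7 kb upstream, chr1:193704886-193705086: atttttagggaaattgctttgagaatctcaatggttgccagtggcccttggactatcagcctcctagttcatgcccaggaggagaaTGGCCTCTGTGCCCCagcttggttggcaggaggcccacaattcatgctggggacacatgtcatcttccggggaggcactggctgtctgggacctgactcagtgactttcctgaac
Slc30a1, 14.6 kb upstream, chr1:193715901-193716101: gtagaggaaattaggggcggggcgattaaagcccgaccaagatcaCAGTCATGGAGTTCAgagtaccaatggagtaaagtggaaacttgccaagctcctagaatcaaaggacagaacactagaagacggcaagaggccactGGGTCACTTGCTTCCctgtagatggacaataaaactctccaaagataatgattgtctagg
Mt1, at the start, chr8:96702798-96702988: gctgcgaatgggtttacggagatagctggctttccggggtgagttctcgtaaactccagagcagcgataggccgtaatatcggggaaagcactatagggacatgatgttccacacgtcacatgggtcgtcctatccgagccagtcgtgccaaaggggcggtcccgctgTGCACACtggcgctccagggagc
Mt1, 3.56 kb downstream of the start, chr8:96706449-96706649: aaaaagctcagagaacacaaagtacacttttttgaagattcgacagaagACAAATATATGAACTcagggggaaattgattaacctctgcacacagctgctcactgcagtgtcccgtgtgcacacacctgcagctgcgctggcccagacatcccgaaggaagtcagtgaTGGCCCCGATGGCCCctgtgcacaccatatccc
Mt2, upstream part of the region at the start (added), chr8:96696411-96696517: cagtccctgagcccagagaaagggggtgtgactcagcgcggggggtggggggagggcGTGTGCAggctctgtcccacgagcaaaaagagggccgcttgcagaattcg
The closest DR3 match within these stretches had 0 mismatches 25.0 kb upstream of Slc39a14, 1 mismatch in the other Slc39a14 stretch, and 2 mismatches in those of Slc39a4, Slc39a5, Slc30a1 and Mt1. Within 100 bp of its centre, the region at the Mt2 start had no DR3 match with fewer than 4 mismatches. A match describes the letters and does not show which protein was bound to them.

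All 6 genes had more VDR peaks on average after 1,25(OH)2D3 than after vehicle, and at Slc39a4 and Slc39a14 every 1,25(OH)2D3 library exceeded every vehicle library. Groups separated in this way at 3581 of 22367 protein-coding genes (16% of them), and the mean was higher with hormone at 63.6%, so the direction was that of most genes. The separated members were 2 of 6, and none was separated the other way, as 0.0447% of all genes were. The difference between the group means had a median of 2.83 peaks over the 6 genes and 0.67 over all genes. Over the 20254 genes with a peak in any library the median was 1. The members also held more peaks, with a mean of 7.22 after 1,25(OH)2D3 against 3.20 over all genes. An exact two-sided permutation test of 3 against 3 libraries cannot give less than p = 0.1, which Slc39a4 and Slc39a14 reached (adjusted p = 0.623 with Benjamini-Hochberg over all genes). The other members had p = 0.3 in the same exact test, and no member passed the threshold of 0.05. When the lists were cut to the same length, the mean was higher with hormone at 5 of the 6 members and 24.4% of all genes. The differences at these members ran from 0.33 peaks at Mt1 and Mt2 to 3.33 at Slc39a4. All genes include 2113 with no peak in any library, and the share with equal means in that setting is not given here. With counts taken per 10000 peaks of the list, the mean was higher with hormone at 6 of 6 members and 49% of all genes. The member differences then ran from 0.09 to 0.73. Mt1 and Mt2 share all of their regions, so they are not independent genes in these counts or in the median. Within 10 kb of the gene body the groups were apart at Slc39a4, Slc39a5 and Slc39a14, and at 9.82% of all genes.

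**Figure D1:**
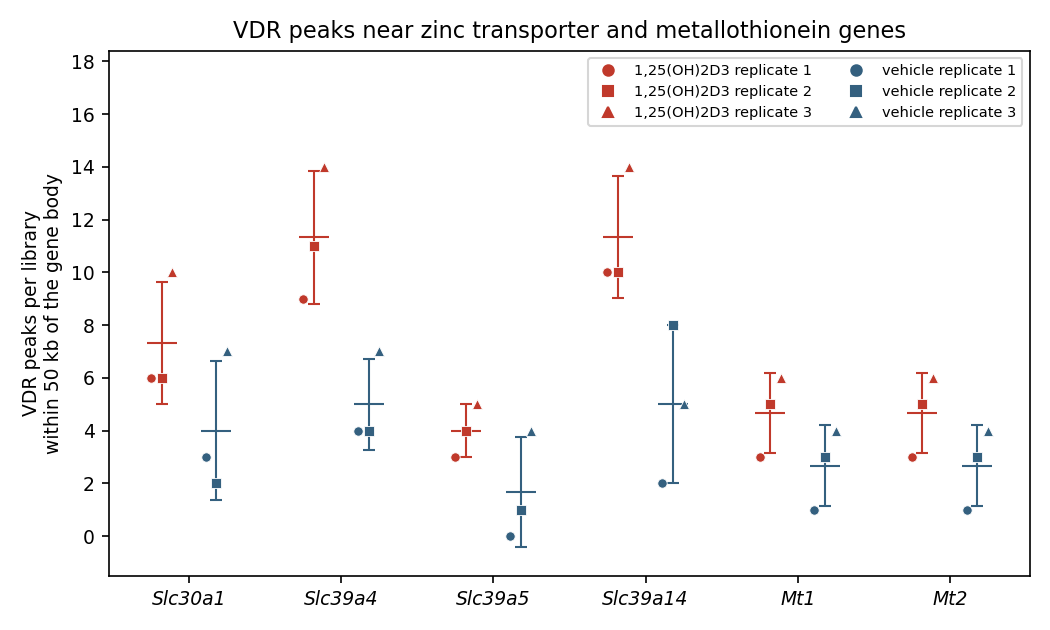
VDR peaks per library within 50 kb of the gene body (vertical axis) for each zinc transporter and metallothionein gene, with 1,25(OH)2D3 libraries in red and vehicle libraries in blue; the bar and whiskers give the mean and SD of 3 libraries and the symbols the replicates. The groups are apart at Slc39a4 (9 to 14 peaks with 1,25(OH)2D3 against 4 to 7 with vehicle) and Slc39a14 (10 to 14 with 1,25(OH)2D3 against 2 to 8 with vehicle) and overlap at the other genes.

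Slc39a4 (ENSMUSG00000063354.5, chromosome 15, 76442815 to 76447322, minus strand), the apical zinc importer, had 9, 11 and 14 peaks in 1,25(OH)2D3 replicates 1, 2 and 3, against 4, 4 and 7 in the vehicle replicates. The groups did not overlap, and the means were 11.3 ± 2.52 with hormone and 5 ± 1.73 with vehicle (SD, n = 3 each; exact permutation p = 0.1). The difference was 6 peaks among replicates 1 and 2 and 7 between the deep libraries of replicate 3. With the lists shortened to the same length, 8 peaks remained on average with hormone and 4.67 with vehicle, and the groups were still apart, as they were for 4.03% of all genes in that setting. Per 10000 peaks of a list, the means were 3.50 with hormone and 2.90 with vehicle, and the groups overlapped.

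The Slc39a4 window held 15 regions, and the highest of them in every 1,25(OH)2D3 list stood just upstream of the gene. That region (76447997 to 76448348, centred 0.85 kb upstream of the start) was present in all 6 libraries. Its list percentile was 99.4, 99.5 and 99.5 in the 1,25(OH)2D3 libraries and 94.4, 95.4 and 98.6 in the vehicle libraries. The 2 ranges did not overlap, which is no measure of change between lists of different lengths. The share of other regions apart in this way is not given here. By mean percentile with hormone, 143 of the 17875 regions shared by the 3 1,25(OH)2D3 libraries stood higher. A neighbour 1.74 kb upstream (76448890 to 76449232) was called in every 1,25(OH)2D3 library, at 94.3 to 95.8, and in vehicle replicate 3 at 92.6. Another region lay in an intron of Slc39a4 itself, 3.73 kb past the start (76443425 to 76443755), with a DR3 match of 1 mismatch. It was in all 3 1,25(OH)2D3 libraries at 94.6 to 96.2, and in vehicle replicate 1 at 86.7. All of these were shared by every hormone library, and of them the region 0.85 kb upstream alone was in every vehicle library.

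The window holds 6 other protein-coding genes, and the 3 regions above were the only ones of the 15 with Slc39a4 as the nearest gene start. The region 40.5 kb upstream (76487688 to 76488038) was in all 6 libraries and lies in Cyhr1. Its percentile was 90.1, 89.5 and 93.6 with hormone and 89.2, 56.3 and 98.6 with vehicle, and in vehicle replicate 3 it stood just above the region 0.85 kb upstream. Regions 6.59 and 9.35 kb past the start were held by every 1,25(OH)2D3 library, the nearer one also by vehicle replicate 2 and the farther one also by vehicle replicate 3, and have Cpsf1, a subunit of the mRNA 3' end cleavage complex, as the nearest start. The region 41.7 kb past the start (76405379 to 76405885) was held by every 1,25(OH)2D3 library at 60.3 to 71.6 but by none of the vehicle libraries, and is nearest to Adck5. Around Adck5 there were also regions 37.9 kb past the Slc39a4 start, with vehicle replicate 3 as its only vehicle library, and 49.2 kb past it, with vehicle replicates 1 and 2. 1,25(OH)2D3 replicates 2 and 3 held the regions 9.28 kb upstream, near the start of Vps28, and 43.2 kb upstream, near that of Cyhr1. Of these, the Vps28 region was also in vehicle replicate 3. Peaks nearest to the Slc39a4 start itself numbered 3 on average with hormone and 1.67 with vehicle, and the groups did not overlap. The share of all genes apart in this setting is not given here, and it was 16% for peaks within 50 kb.

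Slc39a14 (ENSMUSG00000022094.8, chromosome 14, 70703274 to 70751232, minus strand), a broad importer of zinc, iron and manganese, had 10, 10 and 14 peaks in the 1,25(OH)2D3 libraries, against 2, 8 and 5 in the vehicle libraries. The groups did not overlap, and the means were 11.3 ± 2.31 with hormone and 5 ± 3 with vehicle (SD, n = 3 each; exact permutation p = 0.1). The difference was 5 peaks among replicates 1 and 2 and 9 between the replicate 3 libraries, and here the deep vehicle library was not the one with the most vehicle peaks. With lists of the same length the means were 5 with hormone and 3.67 with vehicle and the groups overlapped, as they did per 10000 peaks (3.52 with hormone and 2.90 with vehicle).

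The 19 Slc39a14 regions were spread over the gene and both flanks, and 12 had Slc39a14 as the nearest gene start. All 6 libraries held 2 of them, of which the region 36.4 kb upstream, in an intron of Piwil2 (70787450 to 70787897), is described here. It stood at 89.4, 90.1 and 93.7 in the 1,25(OH)2D3 lists and 83.6, 92.0 and 94.4 in the vehicle lists. The percentiles of the groups overlapped.

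Closer to the Slc39a14 start, regions were held by every hormone library and by some vehicle libraries. Those 2.89 kb (70748130 to 70748558) and 10.0 kb (70741006 to 70741378) past the start, each with a DR3 match of 1 mismatch, were in all 3 1,25(OH)2D3 libraries at 89.4 to 90.1 and 80.9 to 92.5. Vehicle replicate 2 held both, at 69.9. The region 2.95 kb upstream (70753993 to 70754371) was held by each 1,25(OH)2D3 library and in vehicle replicates 2 and 3, and its neighbour 2.14 kb upstream in 1,25(OH)2D3 replicates 2 and 3 and no vehicle library. Within the gene, the region 28.2 kb past the start (70722789 to 70723283) was called in every 1,25(OH)2D3 library and not with vehicle, but low in the lists, at 1.56, 19.7 and 33.9. These distances are from the outermost start. The regions at 2.89 and 28.2 kb are each within 1 kb of another annotated start inside the gene. The region 41.4 kb past the start was in all 3 1,25(OH)2D3 libraries and in vehicle replicate 3.

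The remaining Slc39a14 regions held by 2 of the 3 1,25(OH)2D3 libraries were placed 58.5 and 45.8 kb past the start and 25.0 kb upstream, and vehicle replicate 2 also held the one at 45.8 kb. The one 25.0 kb upstream (70776073 to 70776439, in an intron of Piwil2) was low in the lists of 1,25(OH)2D3 replicates 1 and 3, at 8.51 and 26.0, and absent from every vehicle list. It holds the DR3 match with 0 mismatches printed above, and no other of the 63 regions had such a match. The region with the closest match to the element thus stood low in the lists that held it.

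Slc39a5 (ENSMUSG00000039878.6, chromosome 10, 127832990 to 127838280, minus strand), an importer of the basolateral membrane, had 3, 4 and 5 peaks in the 1,25(OH)2D3 libraries, against 0, 1 and 4 in the vehicle libraries. The groups overlapped through vehicle replicate 3, and the means were 4 ± 1 with hormone and 1.67 ± 2.08 with vehicle (SD, n = 3 each; exact permutation p = 0.3). Without vehicle replicate 3 the difference was 3.5 peaks in place of 2.33, and the groups were then apart, as 42.3% of all genes were without that library. With lists of the same length the difference was 0, at 1.33 peaks in both groups. Per 10000 peaks of a list the groups were apart, at 1.23 with hormone and 0.50 with vehicle, which 10% of all genes showed.

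The region closest to the Slc39a5 start (127837413 to 127837826, centred 0.661 kb past it) was called in every 1,25(OH)2D3 library, at 69.8, 59.2 and 76.5, and in no vehicle library. It also overlaps Ankrd52, a neighbour on this crowded stretch of chromosome 10. The other regions shared by the 3 1,25(OH)2D3 libraries lay 30.2 and 32.1 kb past the start, within 1 kb of a start of Coq10a, a gene of coenzyme Q function, and were also in vehicle replicate 3. The window held 8 regions in all, of which only the region at 0.661 kb had Slc39a5 as the nearest gene start.

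Slc30a1 (ENSMUSG00000037434.7, chromosome 1, 193730646 to 193737126, plus strand), the zinc exporter, had 6, 6 and 10 peaks in the 1,25(OH)2D3 libraries, against 3, 2 and 7 in the vehicle libraries. Vehicle replicate 3 lay within the range of the hormone libraries, and the means were 7.33 ± 2.31 with hormone and 4 ± 2.65 with vehicle (SD, n = 3 each; exact permutation p = 0.3). The groups were apart without that library, as 42.3% of all genes were, with a difference of 4.83 peaks in place of 3.33. Without 1,25(OH)2D3 replicate 3 the difference was 2 peaks. Per 10000 peaks of a list, the means were 2.24 with hormone and 2.07 with vehicle.

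Upstream of Slc30a1 stood regions present with and without hormone, while the regions nearest to its start were seen mainly with hormone and in the deep vehicle library. The regions 25.7 kb (193704824 to 193705148) and 14.6 kb (193715798 to 193716204) upstream were in all 6 libraries. The region at 25.7 kb stood at 97.2, 96.2 and 98.1 in the 1,25(OH)2D3 lists and 84.3, 86.5 and 94.4 in the vehicle lists. These did not overlap, which again is no measure of change between lists of different lengths. How many other regions were apart in this way is not given here. The region at 14.6 kb, in an intron of the neighbouring 1700034H15Rik, stood at 89.3, 93.6 and 93.2 with hormone and 77.6, 94.1 and 93.7 with vehicle, which overlapped. The regions 31.5 kb and 4.59 kb upstream were in all 3 1,25(OH)2D3 libraries and in vehicle replicate 3 alone of the vehicle libraries. The region nearest to the Slc30a1 start, 0.636 kb upstream (193729821 to 193730200), was in 1,25(OH)2D3 replicates 2 and 3, at 58.4 and 70.5, and in no vehicle library. Regions 7.07 kb upstream and 8.06 kb past the start were held by 2 of 3 1,25(OH)2D3 libraries and vehicle replicate 3. Of the 12 regions in the window, 8 had Slc30a1 as the nearest gene start, judged by the outermost annotated start of each gene. The regions 0.636, 4.59 and 7.07 kb upstream also lie in 1700034H15Rik. Those at 4.59 and 7.07 kb are within 1 kb of another annotated start, which is closer to them than that of Slc30a1.

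The metallothionein genes Mt1 (ENSMUSG00000031765.6, chromosome 8, 96702989 to 96704225) and Mt2 (ENSMUSG00000031762.6, 96696518 to 96697467), both on the plus strand, start 6.47 kb apart and share all 9 of their regions, so they count as 1 locus. Each had 3, 5 and 6 peaks in the 1,25(OH)2D3 libraries, against 1, 3 and 4 in the vehicle libraries. The groups overlapped, with means of 4.67 ± 1.53 with hormone and 2.67 ± 1.53 with vehicle (SD, n = 3 each; exact permutation p = 0.3). With lists of the same length the means were 2 with hormone and 1.67 with vehicle, and per 10000 peaks 1.42 with hormone and 1.33 with vehicle. Leaving out vehicle replicate 1 moved the difference to 1.17 peaks in place of 2, and leaving out 1,25(OH)2D3 replicate 3 to 1.33.

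At the start of Mt1, VDR stood near the top of the lists, and at the start of Mt2 it stood lower and in fewer libraries. The Mt1 region (96702742 to 96703055) is centred 91 bp upstream of the outermost annotated start and 213 bp upstream of a second start within the gene. It was in all 3 1,25(OH)2D3 libraries at 98.6, 98.8 and 99.6 and in vehicle replicates 2 and 3 at 93.2 and 99.0, and was missing from vehicle replicate 1, the shortest list. Among the 17875 regions that the 3 1,25(OH)2D3 libraries shared, 290 stood higher. The Mt2 region (96696411 to 96696770) is centred 72 bp past the start, and was in 1,25(OH)2D3 replicates 2 and 3 at 57.4 and 67.2 and in vehicle replicate 3 at 84.2. The difference between the 2 starts in list place was not tested.

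Downstream of Mt1, regions 3.56 kb (96706382 to 96706717) and 12.3 kb (96715099 to 96715398) past its start were in all 3 1,25(OH)2D3 libraries. The nearer one stood at 90.6, 89.1 and 97.4 with hormone and at 68.6 in vehicle replicate 1, its only vehicle library. The farther one stood at 57.3, 65.2 and 78.0 with hormone and at 36.2 in vehicle replicate 2. No region of the locus was in all 6 libraries, and none was shared by the 3 1,25(OH)2D3 libraries and missing from vehicle. A region at the start of Nup93, a nuclear pore gene, 35.6 kb from Mt1, was in 1,25(OH)2D3 replicates 2 and 3 only.

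**Figure D2:**
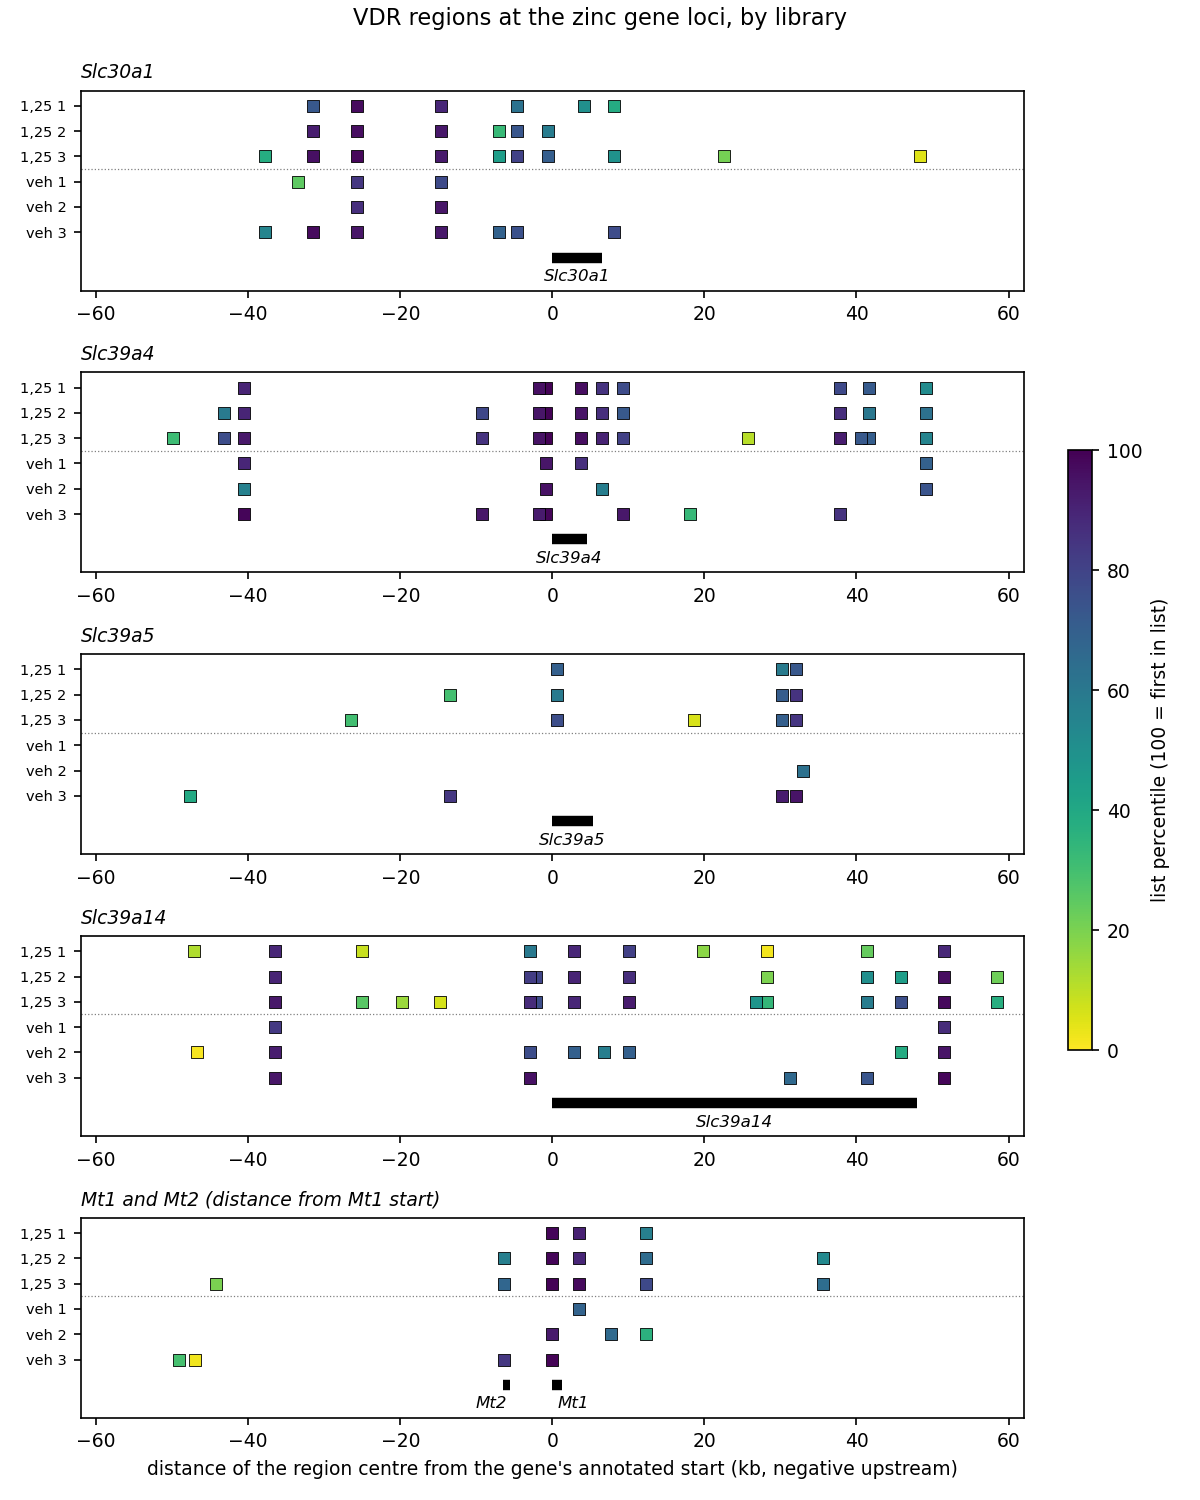
Each square is a VDR region (horizontal axis, distance of its centre from the gene's annotated start in kb, negative upstream) called in the library of that row, with the 3 1,25(OH)2D3 libraries (1,25) above the 3 vehicle libraries (veh); the colour gives the place in the list as a percentile and the black bar the gene. Columns filled in all 6 rows are present at Slc30a1, Slc39a4 and Slc39a14, 2 at each, and at none of the other loci.

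Set against each other per 100 kb of window, the loci ran from Slc39a4 (10.8 ± 2.41 peaks per 100 kb with 1,25(OH)2D3) through Slc39a14 (7.66 ± 1.56) and Slc30a1 (6.89 ± 2.17) to Mt2 and Mt1 (4.62 ± 1.51 and 4.61 ± 1.51) and Slc39a5 (3.80 ± 0.95; SD, n = 3 each). With vehicle the densities were 4.78 ± 1.66, 3.38 ± 2.03, 3.76 ± 2.48, 2.64 ± 1.51, 2.63 ± 1.51 and 1.58 ± 1.98 in the same order of genes. Neighbours in the hormone order overlapped in their library values, so the order of adjacent loci is within the spread.

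Of the 63 regions, 26 were in all 3 1,25(OH)2D3 libraries, and the members of this set differed in how many vehicle libraries shared them. Vehicle held 6 of the 26 in all 3 libraries, 3 in 2 libraries, 14 in 1 library and 3 in none. The 3 regions in every 1,25(OH)2D3 and no vehicle library, at Slc39a5, in Slc39a14 and near Adck5, are 4.76% of the 63, against 5.39% of all regions and 6.02% of those within 50 kb of any protein-coding gene, close to the background. The 6 regions in all libraries are 9.52%, against 4.99% of all regions, 5.5% of regions near genes and 8.95% of the 190 regions at other zinc genes. No region was in every vehicle and no 1,25(OH)2D3 library, against 0.0299% of all regions and 0.0314% near genes. Without vehicle replicate 3, 58 of the 63 regions were left, and 11 of these (19%) were in every 1,25(OH)2D3 and no vehicle library, against 13.8% of all regions left and 14.1% near genes, so the class grew across the genome.

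The share of the 63 regions shared by the 3 1,25(OH)2D3 libraries was 41.3%, against 20.5% of all regions, 22.8% of those near genes and 33.7% of those at other zinc genes. Those called in at least 2 of the 3 numbered 37 (58.7%), against 32.4% of all regions and 35.9% near genes. Another 24 (38.1%) rested on 1 library, against 62.6% of all regions and 58.7% near genes. Of these 24, 14 came from 1,25(OH)2D3 and 10 from vehicle libraries. Vehicle replicate 3 alone held 5 (7.94%), against 37% of all regions and 31.2% near genes. Regions held by at least 2 of 3 1,25(OH)2D3 libraries and by vehicle replicate 3 alone of the vehicle libraries numbered 12 (19%), against 5.24% of all regions, 5.74% near genes and 5.26% of those at other zinc genes. That class was picked after its values were seen, and no test was made of these shares. The regions called in 2 or 3 1,25(OH)2D3 libraries but not with vehicle numbered 9 (14.3%), against 12.3% of all regions and 13.8% near genes.

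**Figure D3:**
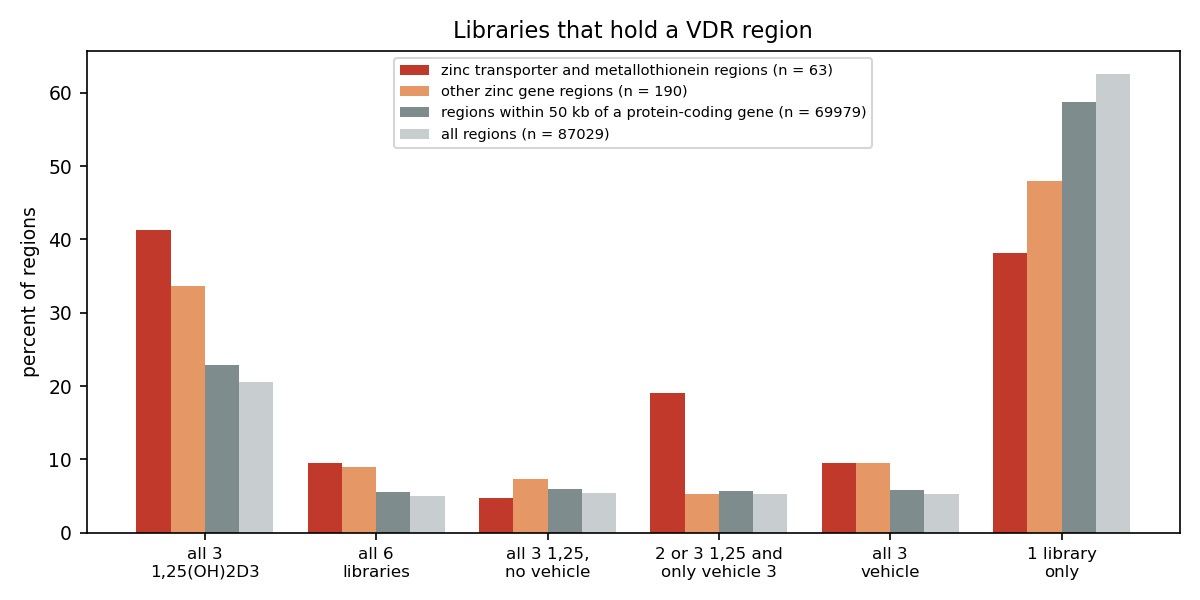
Percent of regions (vertical axis) found in the named combinations of libraries, for the 63 zinc transporter and metallothionein regions, the 190 regions at the other zinc genes, the 69979 regions within 50 kb of a protein-coding gene and all 87029 regions. The zinc transporter and metallothionein regions stand above the other sets in the share found in all 3 1,25(OH)2D3 libraries (41.3%) and below them in the share found in 1 library (38.1%).

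The regions are described next by where they lie and by their letters. By their centres, 19 of 63 (30.2%) were within 1 kb of an annotated transcription start, against 10.2% of all regions and 12.6% of those near genes, and 18 (28.6%) were in introns, against 40.7% of all. The starts were those of any protein-coding gene, and included neighbours such as Adck5, Cpsf1, Vps28, Cyhr1, Coq10a and Nup93. Each window held 1 to 6 other protein-coding genes. A member was the nearest gene start for 29 of the 63 regions, judged by the outermost start of each gene. Of the 37 regions above, 16 (43.2%) were at starts, against 15.2% of all regions in 2 or 3 1,25(OH)2D3 libraries.

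A DR3 match with at most 2 mismatches lay within 100 bp of the centre of 40 of the 63 regions (63.5%), against 46% of all regions. With at most 1 mismatch it was 7 regions (11.1%), against 10.9% of all regions. Among regions in 2 or 3 1,25(OH)2D3 libraries the gap was smaller, at 67.6% of the 37 against 60.9% of all such regions, and with at most 1 mismatch the 37 were lower, at 16.2% against 18.7%. Metal response element cores lay in 12 regions (19%), against 11.6% of all regions and 12.4% of those near genes. Matches on both strands were counted, and cores that overlap on opposite strands were counted separately. The Mt regions at the Mt2 start, at the Mt1 start and 3.56 and 12.3 kb past the Mt1 start held 4, 2, 4 and 3 cores. The region at the start of Nup93, the other one that 2 or more 1,25(OH)2D3 libraries held there, had none. These counts cover 100 bp on each side of a region's centre. The core printed above for the Mt2 start lies farther from the centre and is not among the 4.

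Among 23 other zinc genes (the remaining Slc30a and Slc39a transporters, Mt3, Mt4 and Mtf1), 18 had a higher mean peak number with 1,25(OH)2D3, 4 a lower one and 1 the same. The groups were apart, with hormone higher, at 5 of 23 genes, against 16% of all genes, and in the other direction at 0. The median difference was 1.33 peaks. Every gene of the list had a peak in at least 1 library.

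The largest difference in the list was at Mtf1, which encodes the zinc-sensing factor that controls Mt1, Mt2 and Slc30a1. It had 5, 6 and 10 peaks in the 1,25(OH)2D3 libraries, against 1, 2 and 3 in the vehicle libraries (means 7 ± 2.65 with hormone and 2 ± 1 with vehicle, SD, n = 3 each; exact permutation p = 0.1, adjusted p = 0.623). Slc39a3, a plasma membrane importer, had 6, 7 and 8 peaks with hormone, against 0, 4 and 4 with vehicle. Slc30a2, a vesicular zinc transporter, had 10, 12 and 11 with hormone and 6, 9 and 6 with vehicle. The groups were apart at all of these, but overlapped at Slc30a4, an exporter into vesicles, with 12, 6 and 8 with hormone and 1, 6 and 6 with vehicle. Slc30a10, named as a zinc transporter but known as a manganese exporter, had 14, 14 and 15 peaks in the 1,25(OH)2D3 libraries, against 6, 13 and 13 in the vehicle libraries, and the groups were apart.

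**Figure D4:**
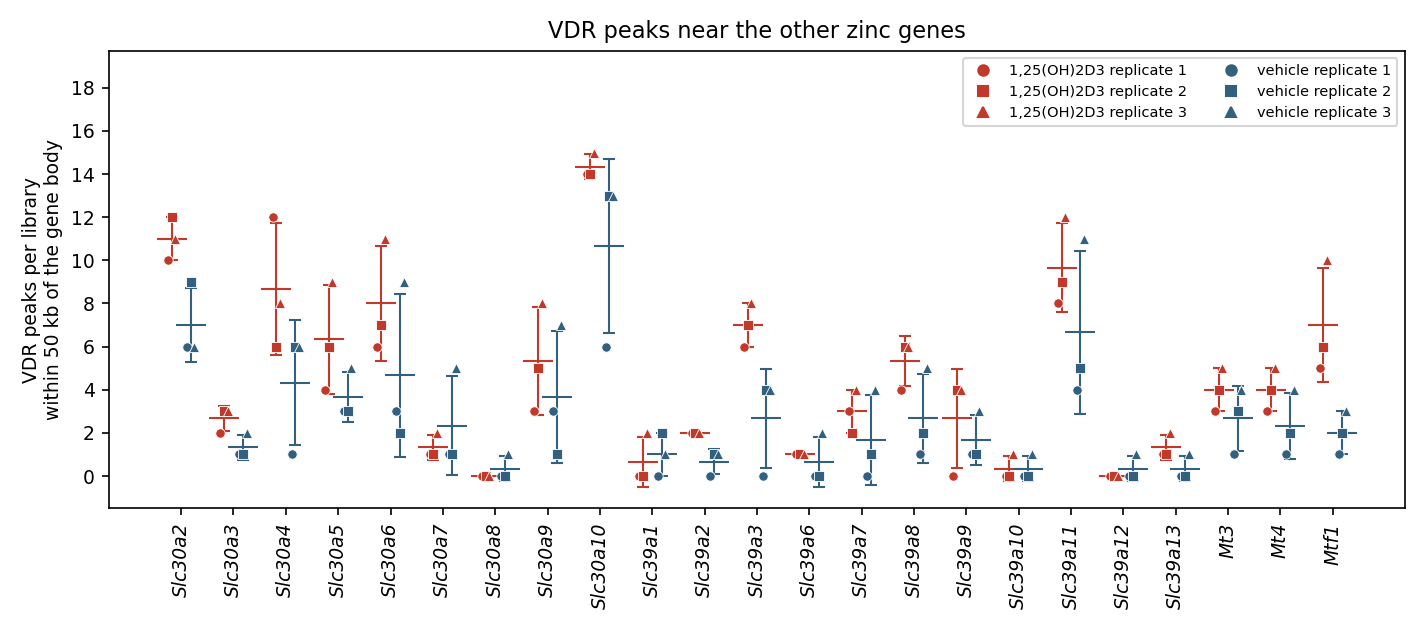
VDR peaks per library within 50 kb of the gene body (vertical axis) at the 23 other zinc genes, with 1,25(OH)2D3 libraries in red and vehicle libraries in blue; bars and whiskers give the mean and SD of 3 libraries. The groups are apart at Slc30a2, Slc30a10, Slc39a2, Slc39a3 and Mtf1.

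By the Euclidean distance between peak numbers over the 6 libraries, the genes of this list most like each member were Slc30a6 and Slc30a5 for Slc30a1 (distances 2.45 and 3.16), Slc39a11 and Slc30a2 for Slc39a4 (5.10 and 6.40), Slc30a2 and Slc39a11 for Slc39a14 (5.57 and 7.62), and Mt4 and Mt3 for Slc39a5 (1.41 and 2.24). For Mt1 and Mt2 they were Mt3 (1.41) and Mt4 (1.73), which lie in the same cluster and whose windows overlap theirs.

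Expression was not analysed here, so the labelled epithelium could only be set beside peaks near marker genes. Summed over 5 epithelial markers (Vil1, Epcam, Cdh1, Fabp2 and Lct), there were 34 to 50 peaks per 1,25(OH)2D3 library and 11 to 33 per vehicle library. Over 4 immune markers the sums were 12 to 20 with hormone and 6 to 20 with vehicle, and over 4 stromal, endothelial and muscle markers 17 to 24 with hormone and 6 to 21 with vehicle. Each of these genes had a peak in at least 1 library. A peak near a gene does not show that the gene is active, and the part of other cell types in the results was not tested.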

How the data were processed

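VDR ChIP-seq libraries of 3 1,25(OH)2D3 and 3 vehicle samples were grouped by their titles, and the input, for which no file was used here, entered no comparison. Per the submitters' processing notes, the authors used Bowtie and HOMER with the build mm9. Versions are not given in the sources used here. Per the file headers, HOMER called the peaks of every library separately, with the same input, at a false discovery rate of 0.001, with at least 4-fold more tags than the input and than the local 10000 bp. The deposited files give the start and end of each peak. The deposited score is 1 throughout, so the list order was used as a percentile, which describes place in the list only.

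Peaks of the numbered chromosomes and of X and Y were joined where they overlapped by at least 1 bp. Genes were those of GENCODE mouse version 1 (build NCBI 37, which is mm9), and sequences came from that genome. The exact permutation test of peak numbers ran over all 22367 protein-coding genes, and the step was checked on simulated lists. Motifs were searched within 100 bp of region centres. The nearest gene start was judged by the outermost start of each protein-coding gene, and places within 1 kb of a start by all annotated starts. Regions were named where at least 2 of 3 libraries of either group held them, except 1 Slc39a14 region held by all 6 libraries, which is counted but not reported here. The 4 other zinc genes with the largest difference were named by rule, and Slc30a10 and Slc39a2 after their values were seen. Genes, lists and tests were chosen with earlier results of these data known. Replicate numbers were used to pair the libraries in the replicate block only, and no label states such a pairing. Deviations from the group means correlated at 0.407, 0.133 and 0.368 for replicates 1, 2 and 3 over all genes. For libraries with different numbers the correlations ran from -0.419 to 0.0804. Replicate 3 was the deep library of both groups, so these correlations cannot tell pairing from depth. Python 3.11.15, NumPy 2.4.6 and SciPy 1.17.1 were used.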

Additional observations from a re-analysis of the deposited data

How the results depend on the processing

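Peak numbers near each of the 6 genes kept their direction in 95 of the 96 values from other settings (other windows, list lengths, scalings and libraries). The exception was Slc39a5, whose difference was 0 with lists of equal length. The 96 values reuse the same 6 libraries, and Mt1 and Mt2 share their regions, so they are not independent. Most settings left the list lengths unequal. Per 10000 peaks of a list, the differences ran from 0.09 to 0.73. Leaving out a library gave differences of 2 to 4.83 peaks at Slc30a1, 5 to 7.5 at Slc39a4, 1.5 to 3.5 at Slc39a5, 4.83 to 7.83 at Slc39a14 and 1.17 to 2.83 at Mt1 and Mt2. No setting brought a gene past the threshold of 0.05, which a test of this size cannot reach. With the replicate block, labels were exchanged only within same-numbered libraries, and all 6 genes had p = 0.25, the smallest that paired exact test allows; the block changed no call. The count of regions in every 1,25(OH)2D3 and no vehicle library was 3. It was 0 with lists of equal length, 7 within 100 kb, 11 with replicates 1 and 2 only, 28 with replicate 3 only, and 3 to 11 when a library was left out (8 and 4 without 1,25(OH)2D3 replicates 1 and 2, and 5, 7 and 11 without vehicle replicates 1, 2 and 3). The count in all libraries was 6, against 2 within 10 kb, 15 within 100 kb and 21 with replicate 3 only. Regions in every vehicle and no 1,25(OH)2D3 library numbered 0, against 6 with replicate 3 only. DR3 matches lay in 7 regions when 1 mismatch was allowed in place of 2, and metal response element cores lay in 19 regions (30.2%, against 21.1% of all regions and 22.6% near genes) when 200 bp on each side were searched. The stricter thresholds, narrower windows and shorter lists hold fewer peaks by construction. Settings with fewer libraries or wider windows keep or raise the region counts by construction. For region classes, the shares over all regions are given above for the main setting and without vehicle replicate 3 only. Depth and list length differ between libraries, so an absent peak is one not called at that depth.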
